A study of Mus musculus with 12 samples.

Results

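Messenger RNA of the medial prefrontal cortex was compared between male mice that had received morphine and male mice that had received saline, all carrying the same control virus. The members are the 8 libraries of the 12 in the series whose labels give an adeno-associated virus with a scramble sequence: 4 with morphine (numbered 1, 3, 4 and 5 in their titles) and 4 with saline (numbered 2, 3, 4 and 5). They were compared over the 21958 of 55401 gene IDs with enough counts to test. All were taken after 2 weeks of extinction of a conditioned place preference, so the scramble virus and the extinction period are common to both groups, whose labels differ in the drug. The other 4 libraries, with morphine and a virus against the serotonin receptor 5-HT6R, entered the filter, the scaling and the estimate of the spread between replicates and no comparison. The labels give neither the age, the strain nor the morphine dose, and they do not say whether each library came from a separate animal, so the p-values rest on the scatter among these libraries, and that scatter may be technical.

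In conditioned place preference an animal learns to stay in the chamber where it received a drug, and in extinction the preference fades as the chamber is met without the drug. The medial prefrontal cortex takes part in the recall and the extinction of such memories. Morphine acts on opioid receptors, which couple to inhibitory G proteins, and opioid exposure and withdrawal are also known to engage the adrenal stress hormones, whose nuclear receptor switches on a well known set of genes in glia and blood vessels of the brain.

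The libraries looked like cortex. Slc17a7, the vesicular glutamate transporter of cortical excitatory neurons, stood between 1761 and 2007 CPM (counts scaled to a common library size) and Gad1, the GABA-synthesising enzyme, between 204 and 217 CPM. Ttr, the defining gene of choroid plexus, did not exceed 0.611 CPM. Total counts ran from 41483220 to 65739423. Pairs of libraries from different groups correlated as well (r of log2 CPM 0.969 to 0.977 over 16 pairs) as pairs of saline libraries (0.972 to 0.978, 6 pairs) or of morphine libraries (0.971 to 0.979, 6 pairs), a description over genes that share these libraries. Saline 4 was the highest of the 8 libraries for 21.6% of the 15934 genes of at least 1 CPM and the lowest for 22.1%, and morphine 4 for 14.4 and 14.3%.

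No gene passed the test across all genes. Of 21958 genes tested with edgeR's quasi-likelihood method, 0 (0%) had a Benjamini-Hochberg adjusted p under 0.05, and the smallest adjusted p was 0.859. At an unadjusted p under 0.05 there were 366 genes higher with morphine (1.67%) and 399 lower (1.82%). Another 2 methods were run on the same genes: DESeq2 called 4 and limma voom 0. In 341 genes (1.55%) all 4 morphine libraries lay above all 4 saline libraries, and in 388 (1.77%) all lay below. The log2 fold change, morphine minus saline, was above 0 in 49.5% of genes, with a median of -0.0012 and a median size of 0.11. These shares are the background against which the genes and lists below are to be read; after adjustment over all genes, no gene named below passed with edgeR on all 12 libraries without a replicate block.

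**Figure D1:**
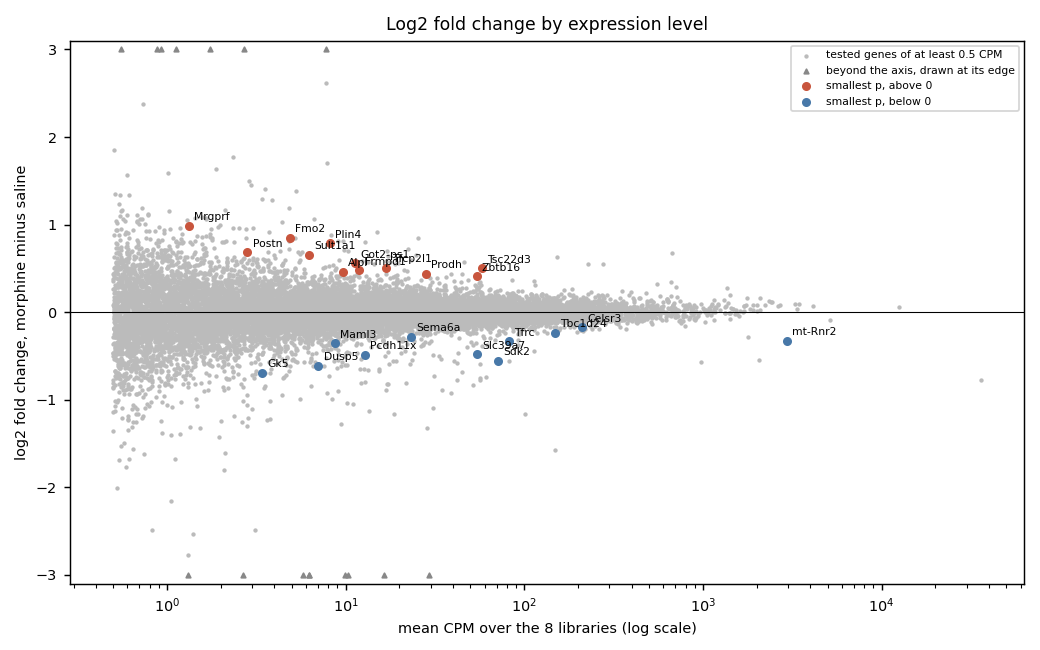
Log2 fold change (vertical axis, morphine minus saline) against mean CPM over the 8 libraries (horizontal axis, log scale) for tested genes of at least 0.5 CPM. Of the genes with the smallest p, 12 above 0 are in red and 11 below 0 in blue; they sit at the edge of the cloud at every level from Mrgprf to mt-Rnr2, while genes with larger fold changes on the left vary more between libraries.

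Zbtb16 had the smallest p of all genes. It encodes a zinc finger transcription factor that glucocorticoids induce (chr9:48654297-48836222, minus strand; mm10, as for all positions here). The saline libraries 2, 3, 4 and 5 stood at 46.4, 47.7, 44.9 and 46.6 CPM and the morphine libraries 1, 3, 4 and 5 at 57.5, 69.7, 62.8 and 56.8 CPM. The saline libraries lay within a narrow band, and the lowest morphine library was above the highest of them. The means were 46.4 ± 1.16 and 61.7 ± 5.95 CPM (SD, n = 4 each). The log2 fold change was 0.41 (SE 0.07, 95% interval 0.26 to 0.56), with an edgeR adjusted p = 0.859 and a DESeq2 adjusted p = 0.00612.

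Fmo2, a flavin-containing monooxygenase (chr1:162874317-162898726, minus strand), followed. Its saline libraries stood at 3.14, 4.70, 3.79 and 2.33 CPM and its morphine libraries at 6.86, 6.38, 5.39 and 6.53 CPM, again without overlap. The log2 fold change was 0.85 (SE 0.18), with an edgeR adjusted p = 0.999 and a DESeq2 adjusted p = 0.0288. Over 26 alternative settings the log2 fold change of Zbtb16 stayed between 0.34 and 0.45 and that of Fmo2 between 0.70 and 1.03.

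Plin4 and Tsc22d3 are further genes that glucocorticoids induce. For Plin4, a coat protein of lipid droplets, the saline libraries stood at 5.66, 6.46, 5.11 and 6.64 CPM and the morphine libraries at 13.2, 12.7, 7.68 and 7.56 CPM. Morphine 1 and 3 had about the same level, well above morphine 4 and 5, which were themselves above every saline library. For Tsc22d3, also called Gilz, an anti-inflammatory leucine zipper protein, the values were 46.8, 53.9, 41.7 and 49.4 CPM with saline and 74.8, 73.3, 62.0 and 61.3 CPM with morphine, in the same order of morphine libraries. On the log2 scale the difference was 0.79 for Plin4 (SE 0.20) and 0.50 for Tsc22d3 (SE 0.14).

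The other 8 of the 12 leading genes above 0 had several roles. Tfcp2l1, a transcription factor of the grainyhead family, stood at 13.2 to 14.7 CPM with saline and 17.4 to 23.6 CPM with morphine (log2 fold change 0.51, SE 0.11). Prodh, the mitochondrial enzyme that starts the breakdown of proline, stood at 17.6 to 26.2 and 28.1 to 36.3 CPM (0.44, SE 0.12). Sult1a1, a cytosolic sulfotransferase, stood at 3.76 to 5.86 and 5.95 to 9.98 CPM (0.66, SE 0.19). In Sult1a1 and Prodh the gap between the groups was narrow, and in Prodh the lowest saline value was saline 4, without which the difference was 0.32. Frmpd1, a scaffold with FERM and PDZ domains, was at 0.48 (SE 0.12), Alpl, the tissue-nonspecific alkaline phosphatase, at 0.46 (SE 0.13) and Postn, the matrix protein periostin, at 0.69 (SE 0.20), each without overlap. Mrgprf, an orphan receptor, was at 0.99 (SE 0.29) and Got2-ps1 at 0.56 (SE 0.14), and in both the groups overlapped. Got2-ps1 is a processed copy of the aspartate aminotransferase gene Got2, so reads may be shared with its parent.

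**Figure D2:**
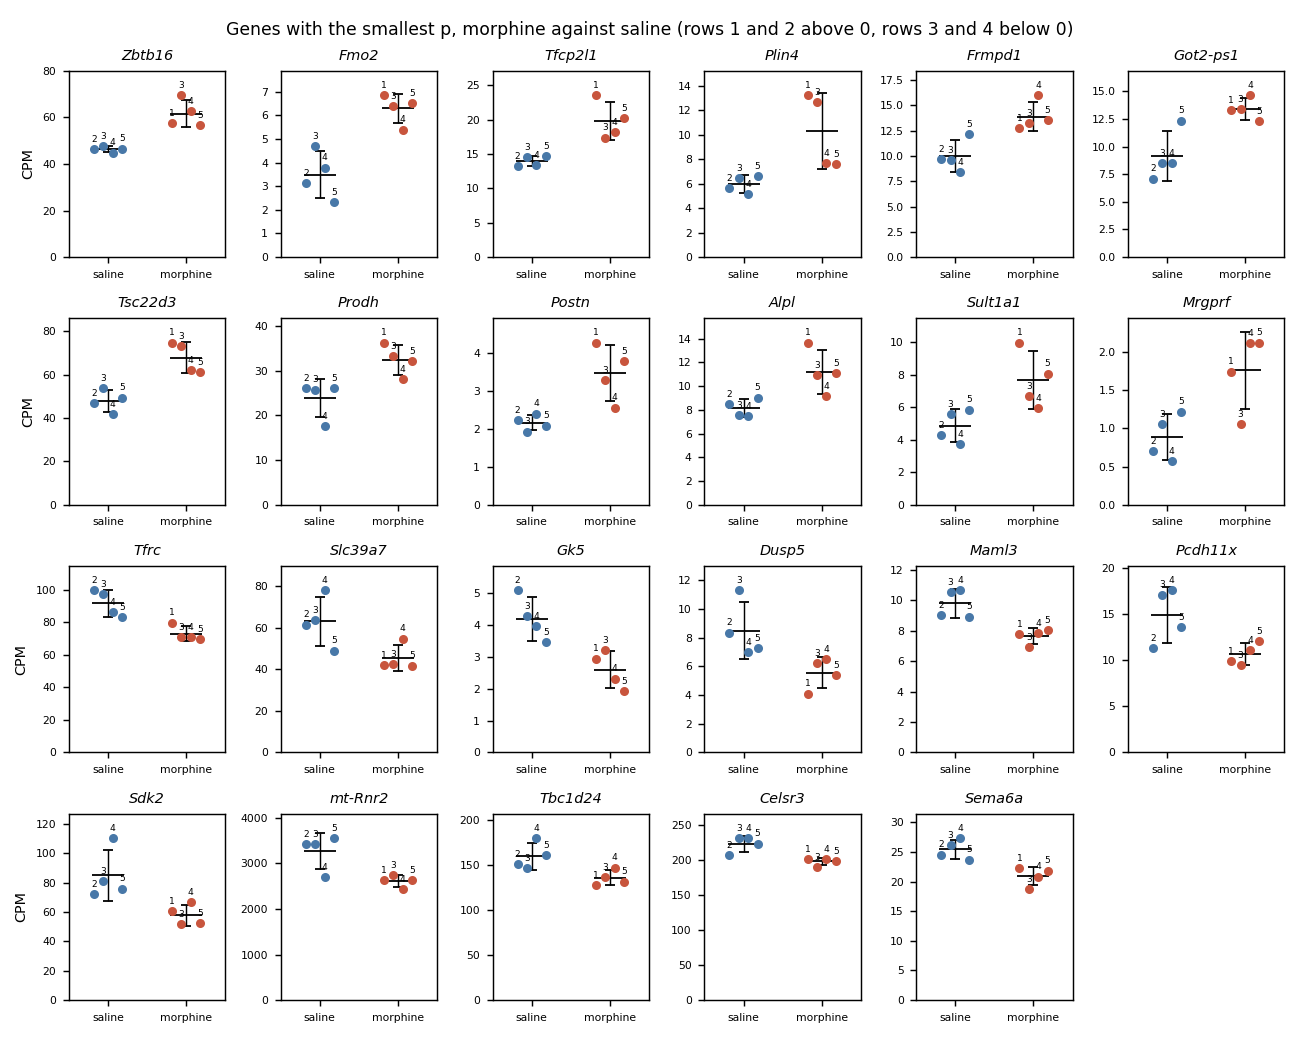
CPM (vertical axes, from 0) of 23 genes with the smallest p in each library, saline in blue and morphine in red; digits are the library numbers of the titles, horizontal bars the means and error bars 1 SD (n = 4). In 10 of the 12 genes of the upper rows and 7 of the 11 of the lower rows the groups do not overlap, which choosing genes by small p favours. Saline 4 is the lowest library for Prodh and the highest for Slc39a7 and Sdk2.

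As a list, genes known to be induced by glucocorticoids held 28 tested members, of which 21 were above 0; the median log2 difference was 0.22. Higher at an unadjusted p under 0.05 were 11 of 28, and 8 of 28 had all morphine libraries above all saline libraries, beside 1.67 and 1.55% of all genes. By either measure 0 members were lower. The list was chosen with earlier results of these data known, so these counts describe its members and are not a test. Besides Zbtb16, Plin4, Tsc22d3 and Sult1a1, the 8 were Klf15, Fam107a, Mertk and Klf9. Fam107a, an actin-binding protein of astrocytes that stress hormones induce, stood at 227, 262, 144 and 261 CPM with saline and 342, 335, 266 and 361 CPM with morphine, and Klf15, a Krüppel-like factor, at 16.4 to 20.2 and 20.5 to 25.9 CPM. The FK506-binding protein gene Fkbp5, a feedback regulator of the glucocorticoid receptor, overlapped (24.1 to 41.1 and 39.7 to 51.1 CPM; log2 fold change 0.35, SE 0.15, or 0.21 without saline 4), and so did Hif3a (0.70, SE 0.26). Sgk1, Dusp1 and Per1, other members with known hormone response, were at 0.20 (SE 0.10), -0.24 (SE 0.31) and -0.12 (SE 0.12). The metallothioneins Mt1 and Mt2 were at 0.55 (SE 0.40) and 0.63 (SE 0.41), with saline 4 at 73.0 and 47.0 CPM, below every other library; without it they were at 0.28 and 0.37. Lcn2, lipocalin 2, was at -2.78 (SE 1.63), at 4.38, 3.07, 0.0639 and 1.76 CPM with saline and 0.441, 0.259, 0 and 0.584 CPM with morphine.

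The count of members at p under 0.05 was 7 of 28 without saline 4, 7 without saline 2, 7 once the model held the ribosomal RNA share of each library and 10 without both libraries numbered 4. Astrocyte markers stood higher in the same libraries, and some members of the list are themselves genes of astrocytes, Gjb6, Glul and Fam107a among them; the part of this in the result was not tested.

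Promoters of members with the hormone's half-site in them show what was searched. The half-site TGTTCT, on either strand (AGAACA on the printed strand), was searched in the 250 bases before each RefSeq start (GRCm38.p6). Of the 28 genes, 25 matched the promoter table, and 8 of their 38 promoters (21.1%) held it, beside 16.1% of all 32851 promoters and 11.1% of the promoters of tested genes of at least 0.5 CPM. Several of the 8 belong to 1 gene, and by gene the count was 5 of 25 (20%), beside 18.2% of all genes and 13.2% of tested genes. Of the 12 leading genes above 0, 9 matched and 4 held it (44.4%): Alpl, Fmo2, Sult1a1 and Tsc22d3. Of 11 leading genes below 0, 8 matched and 1 held it (12.5%). By promoter the shares were 4 of 14 (28.6%) above 0 and 1 of 10 (10%) below. These few genes were chosen by their p in these data, so whether the receptor acts on them was not tested. The promoters of Sult1a1 and Fam107a are printed as those of members whose groups did not overlap and that hold the half-site 2 times, once on each strand, in capitals (5′ to 3′ on the minus strand, mm10); a promoter of Sgk1 holds it 3 times and is not printed.
Sult1a1, chr7:126676419-126676668: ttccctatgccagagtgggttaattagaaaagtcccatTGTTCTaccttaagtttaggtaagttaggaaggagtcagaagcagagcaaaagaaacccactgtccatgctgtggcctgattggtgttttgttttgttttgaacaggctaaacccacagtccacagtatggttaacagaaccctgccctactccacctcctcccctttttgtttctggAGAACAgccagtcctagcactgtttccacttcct
Fam107a, chr14:8309778-8310027: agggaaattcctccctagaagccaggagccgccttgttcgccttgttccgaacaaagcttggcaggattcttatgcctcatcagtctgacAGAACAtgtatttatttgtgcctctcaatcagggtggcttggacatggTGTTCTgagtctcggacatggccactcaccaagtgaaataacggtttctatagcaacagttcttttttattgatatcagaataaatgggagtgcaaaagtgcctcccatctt
A match is a run of letters, not a bound site, and promoters without it are not thereby free of the receptor.

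Below 0 the leading gene was Tfrc, the transferrin receptor that carries iron into cells (chr16:32608920-32632794, plus strand). The saline libraries stood at 99.7, 97.5, 86.2 and 83.2 CPM and the morphine libraries at 79.8, 71.0, 70.8 and 69.9 CPM. The groups did not overlap, and morphine 1 came closest to the saline range. The means were 91.6 ± 8.19 and 72.9 ± 4.65 CPM (SD, n = 4 each), with a log2 fold change of -0.33 (SE 0.08; edgeR adjusted p = 0.999). Slc39a7, a zinc transporter of the endoplasmic reticulum, stood at 61.4, 63.6, 78.0 and 48.9 CPM with saline and 42.1, 42.5, 54.7 and 41.8 CPM with morphine (-0.48, SE 0.12). Saline 4 and morphine 4 were each the highest of their group, and morphine 4 lay above saline 5; without saline 4 the difference was -0.36. In the list of iron and zinc transport, 3 of 19 members were lower at p under 0.05, beside 1.82% of all genes. They were Tfrc, Slc39a7 and the gene of the divalent metal transporter DMT1, Slc11a2. Slc11a2 stood at 56.0 to 65.8 and 50.4 to 55.9 CPM (-0.19, SE 0.07). The zinc importer gene Slc39a10 had all morphine libraries above all saline ones (0.20, SE 0.12, or 0.11 without saline 4), and the list's median was 0.0028, so the members had no common direction.

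Several of the other leading genes below 0 encode cell surface or signalling proteins of neural development. Sdk2, a sidekick adhesion molecule, stood at 72.1 to 111 and 51.8 to 66.8 CPM (-0.55, SE 0.16, or -0.40 without saline 4). Celsr3, an atypical cadherin needed for axon tracts, stood at 208 to 232 and 190 to 202 CPM (-0.17, SE 0.05). The semaphorin Sema6a was at -0.28 (SE 0.09), Maml3, a coactivator of Notch, at -0.36 (SE 0.11) and the protocadherin Pcdh11x at -0.48 (SE 0.15), the last with overlap. Dusp5, which dephosphorylates ERK in the nucleus, stood at 7.02 to 11.3 and 4.11 to 6.53 CPM (-0.61, SE 0.18), and Gk5, a glycerol kinase family gene, at 3.45 to 5.08 and 1.92 to 3.20 CPM (-0.69, SE 0.20). Tbc1d24, a TBC-domain protein of synaptic vesicle traffic, was at -0.23 (SE 0.07), with morphine 4 at the level of the lowest saline library. No list had been made for adhesion or guidance genes, so these are values of single genes and not a theme.

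**Figure D3:**
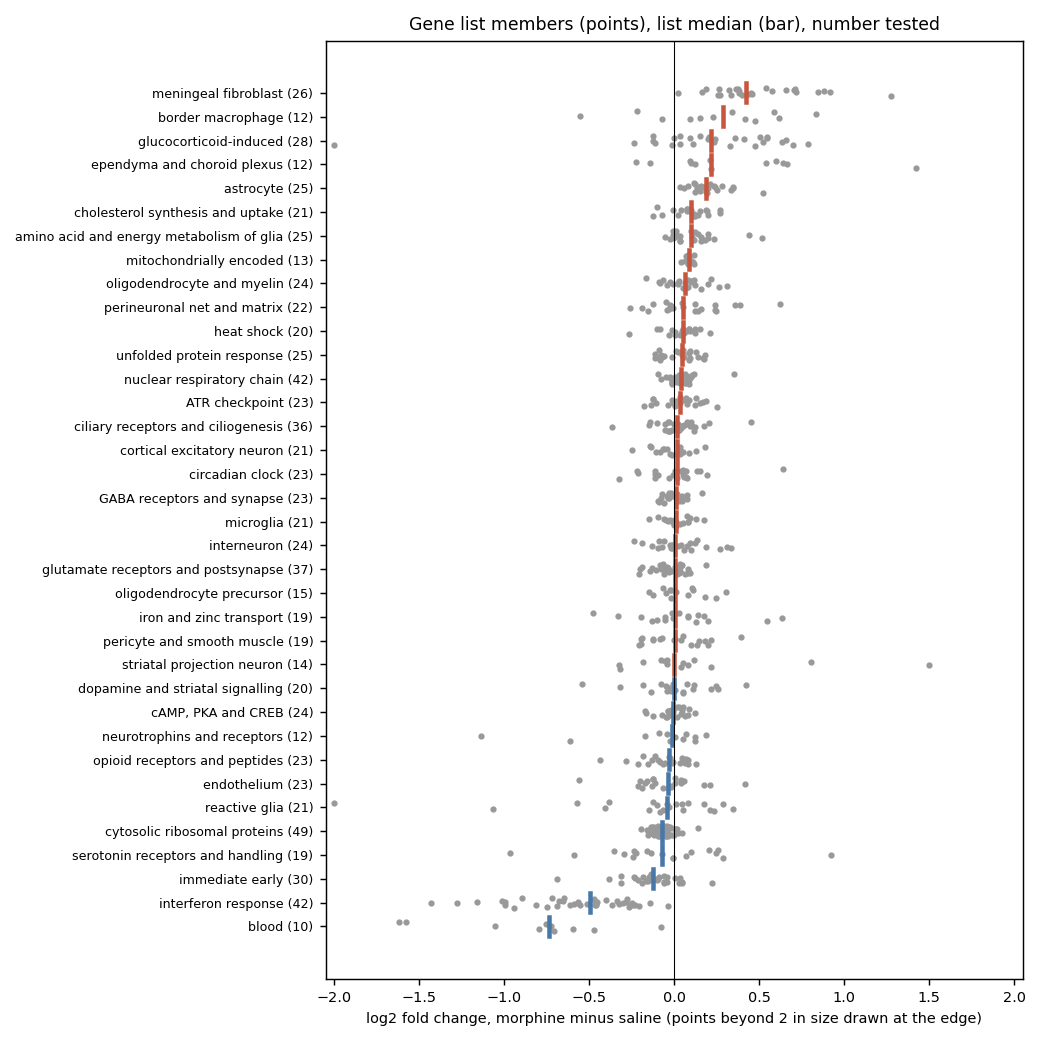
Log2 fold change, morphine minus saline (horizontal axis), of every tested member of the 36 gene lists (grey points, 1 row a list, number tested in brackets), with the list median as a bar, red above 0 and blue below. Medians run from -0.74 for blood to 0.42 for meningeal fibroblast, and most pathway lists of neurons lie within 0.1 of 0.

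Astrocyte markers stood above 0 in all 25 members tested, with a median of 0.19. But only 2 of 25 were at p under 0.05 and 0 of 25 had groups without overlap. Over all genes 1.67% were higher at p under 0.05, and in 1.55% all morphine libraries lay above. Gjb6, the gap junction protein connexin 30, stood at 50.3, 58.9, 28.4 and 57.2 CPM with saline and 74.3, 76.4, 49.9 and 79.2 CPM with morphine (0.52, SE 0.22, or 0.33 without saline 4). Acsbg1, a lipid-activating enzyme, stood at 96.2 to 116 and 108 to 135 CPM (0.20, SE 0.09). Saline 4 and morphine 4 were each the lowest of their group, with the list's mean 0.47 and 0.10 below the average of the 8 libraries on the log2 scale. Without saline 4 the median was 0.11, with 22 of 25 above 0 and 0 at p under 0.05, and without morphine 4 it was 0.23, with 8 at p under 0.05. The count was also 0 without saline 2 or morphine 1, 3 or 5, and it was 5 without saline 3 and 7 without saline 5. It was 5 without knockdown 5 and 3 without knockdown 3, libraries of neither group. In bulk tissue, fewer cells of a type and less RNA per cell cannot be told apart. Among 25 genes of glial amino acid and energy metabolism, 4 were higher at p under 0.05, beside 1.67% of all genes. They were Prodh, the glutamine synthetase gene Glul (0.20, SE 0.07), the glutamine transporter gene Slc38a3 (0.18, SE 0.07) and Pdk2, a pyruvate dehydrogenase kinase (0.14, SE 0.06). Without saline 4 or morphine 3 the count was 1, without morphine 1 it was 2 and without morphine 4 it was 6.

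Markers of meningeal fibroblasts had the highest median of the 36 lists, 0.42, with 26 of 26 members above 0. Of these, 7 of 26 were at p under 0.05, all higher, beside 1.67% of all genes. The groups separated in 0 of 26. Mgp, matrix Gla protein, stood at 9.88, 10.6, 5.94 and 15.1 CPM with saline and 24.6, 15.9, 11.5 and 26.1 CPM with morphine (0.92, SE 0.32). Slc6a13, a GABA transporter of the meninges, stood at 8.33, 6.05, 5.98 and 9.60 CPM with saline and 13.6, 12.7, 5.61 and 17.1 CPM with morphine (0.71, SE 0.27), and Islr at 10.8 to 24.5 and 17.0 to 37.8 CPM (0.72, SE 0.28). The remaining 4 were Nupr1, Slc6a20a, Foxc1 and Crabp2, between 0.37 and 0.85. The level went by library and not only by group: saline 5, at 0.31 above the average on the log2 scale, lay beyond morphine 3 (0.08) and morphine 4 (-0.30), and morphine 1 and 5 were at 0.62 and 0.61. The summed level of the list ran from 597 to 987 CPM with saline and from 763 to 1096 CPM with morphine. The count at p under 0.05 was 19 without saline 5 and 15 without morphine 4, 2 without saline 2, 3 or 4, and 1 without morphine 1 or 5. Leaving out knockdown 2 or 3, libraries of neither group, left 4. Border macrophage genes, which share the meninges, had 9 of 12 above 0 (median 0.28), with F13a1 at 0.58 (SE 0.27), and their median was 0.06 without morphine 5 and 0.46 without morphine 4. The ependyma and choroid plexus list had 10 of 12 above 0 (median 0.21), with Kl at 0.60 (SE 0.23) and Clic6, at 0 to 0.598 CPM, both without overlap. How much meninges each dissection held was not measured.

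**Figure D4:**
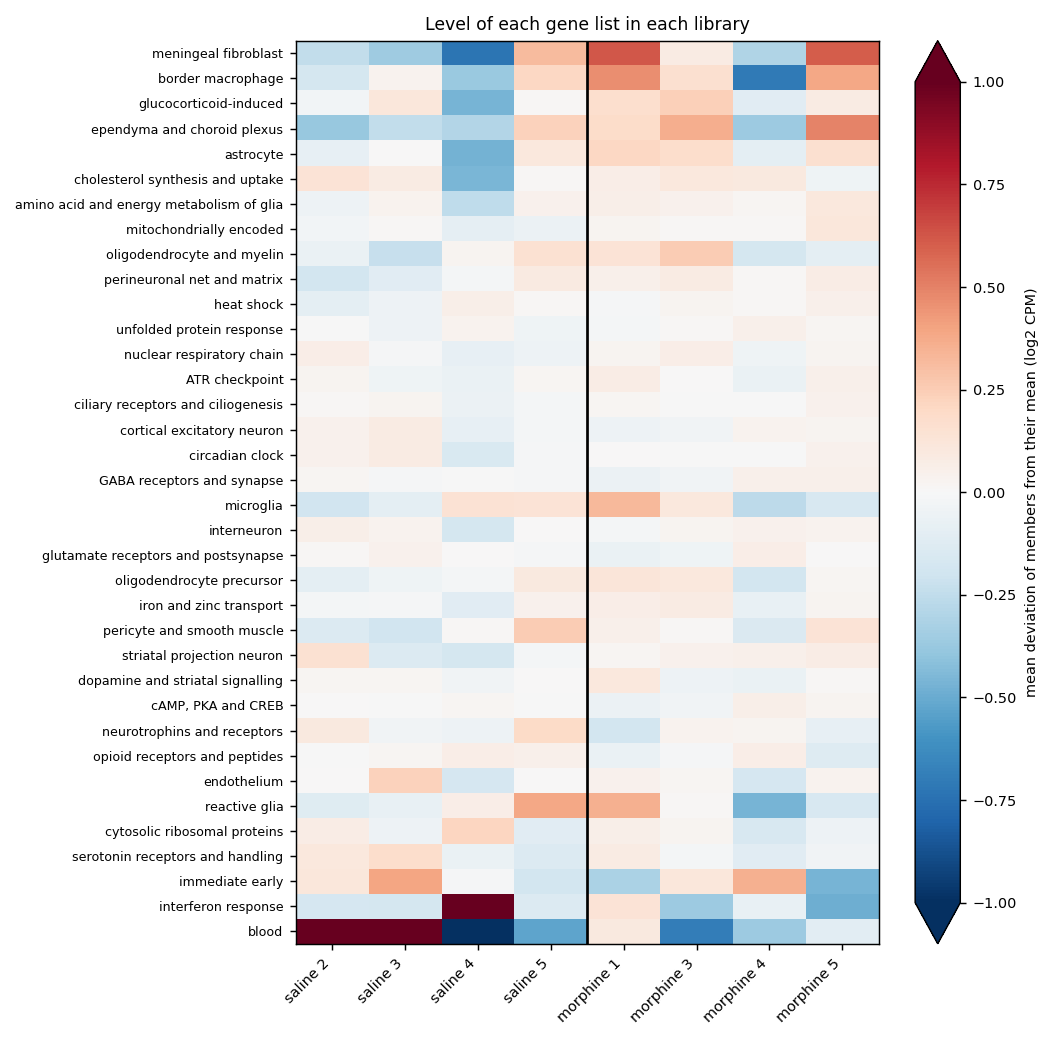
Mean deviation of each list's members from their average over the 8 libraries (colour, log2 CPM; values beyond 1 in size take the end colours), for 36 lists (rows, ordered by median fold change) and 8 libraries (columns, saline left and morphine right of the line). Saline 4 stands apart for interferon response (1.28) and is low for astrocyte and glucocorticoid-induced genes, and saline 2 and 3 are high for blood. For meningeal fibroblast, morphine 1 (0.62) and morphine 5 (0.61) are highest, saline 5 (0.31) is the highest saline library and saline 4 (-0.73) the lowest.

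Of 23 opioid receptor, peptide and G protein coupling genes, 0 were at p under 0.05, 0 separated the groups and 8 were above 0, with a median of -0.03. Oprm1, the mu opioid receptor on which morphine chiefly acts, stood at 0.515, 0.988, 0.719 and 1.03 CPM with saline and 0.268, 0.882, 0.698 and 0.554 CPM with morphine, with overlap (log2 fold change -0.44, 95% interval -1.24 to 0.36). The delta receptor gene Oprd1 stood at 19.9 to 24.9 and 22.6 to 24.5 CPM (0.13, SE 0.08), the kappa receptor gene Oprk1 at 6.50 to 12.3 and 6.95 to 10.8 CPM and the nociceptin receptor gene Oprl1 at 35.6 to 42.4 and 34.9 to 37.9 CPM (-0.13, SE 0.08). Of the peptide precursors, Penk (enkephalins) was at 0.08, Pdyn (dynorphins) at -0.05, Pnoc (nociceptin) at -0.08 and Pomc, at most 1.73 CPM, at -0.28. The abundant coupling genes Gnao1, Arrb1, Rgs4 and Grk2 lay between -0.02 and 0.08, and Grk3 was at -0.11 (SE 0.06).

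Serotonin and dopamine genes held a few members with small p. Htr2a, the excitatory 5-HT2A receptor of cortical pyramidal cells, stood at 28.3, 35.4, 30.0 and 36.5 CPM with saline and 36.1, 37.8, 39.9 and 45.3 CPM with morphine (0.29, SE 0.12), with saline 5 just above morphine 1. Maob, the monoamine oxidase of astrocytes, stood at 20.7 to 29.7 and 30.5 to 33.6 CPM (0.26, SE 0.12), saline 4 being far the lowest, and its difference was 0.15 without that library. The inhibitory receptor gene Htr1a was at -0.23 (SE 0.12), and the serotonin list as a whole had 12 of 19 members below 0. Htr6, the gene that the other virus of the series targets, stood at 5.45, 6.92, 4.35 and 7.98 CPM with saline and 5.30, 5.16, 4.82 and 5.58 CPM with morphine. Pde10a, a phosphodiesterase of striatal-type neurons, stood at 79.4, 87.4, 71.9 and 66.6 CPM with saline and 66.1, 56.7, 61.7 and 60.1 CPM with morphine, where saline 5 and morphine 1 almost met (-0.32, SE 0.11). Drd5, the D5 dopamine receptor, stood at 4.09 to 4.69 and 5.54 to 6.09 CPM, without overlap (0.42, SE 0.22). In the list of cAMP, PKA and CREB genes, 2 of 24 were lower at p under 0.05, the cAMP phosphodiesterases Pde4b and Pde4d, both at -0.17 and both with overlap.

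Several lists of neurons and synapses had medians near 0, with 0 members at p under 0.05 in the next 4. Glutamate receptor and postsynaptic genes had 19 of 37 above 0, GABA genes 12 of 23, cortical excitatory neuron markers 11 of 21 and interneuron markers 12 of 24, with medians between 0.0044 and 0.015. Markers of striatal projection neurons had 7 of 14 above 0 and 1 lower at p under 0.05, Pde10a. The member of each with the smallest p was Grik3 (-0.20, SE 0.10), Gabra3 (0.16, SE 0.11), Cux2 (-0.25, SE 0.19) and Npy (0.33, SE 0.18). Microglia (Olfml3, 0.18, SE 0.12), oligodendrocyte precursor (Tmem100, 0.31, SE 0.18), pericyte and smooth muscle (Anpep, 0.39, SE 0.26) and neurotrophin genes (Ntf3, -1.14, SE 0.60) likewise had medians between -0.01 and 0.01. In the perineuronal net list, Timp4 (0.38, SE 0.17, or 0.23 without saline 4) and Timp3 (0.25, SE 0.11), inhibitors of matrix proteases, were higher at p under 0.05, while Tnr, tenascin R, had all morphine libraries (175 to 197 CPM) below all saline ones (199 to 218 CPM). Endothelial genes had a median of -0.04, with the lipid transporter Mfsd2a above in all morphine libraries (0.42, SE 0.22, or 0.23 without saline 4) and Abcg2 at 0.21 (SE 0.11). The ATR checkpoint list had a median of 0.03 and 0 members at p under 0.05, with Rad1 as the single member without overlap (0.12, SE 0.12) and Wee1 at 0.19 (SE 0.09). Of 36 ciliary genes, 1 was lower at p under 0.05, the centriolar gene Ofd1 (-0.37, SE 0.14). Markers of myelin (median 0.06, or -0.05 without morphine 3; Apod, 0.31, SE 0.15) and genes of cholesterol synthesis (median 0.10, or -0.01 without saline 4; Stard4, 0.20, SE 0.12) had 0 members at p under 0.05.

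Among genes of the unfolded protein response, some chaperones of the endoplasmic reticulum had groups without overlap. Calr, the calcium-binding chaperone calreticulin, stood at 254, 255, 252 and 269 CPM with saline and 283, 298, 294 and 293 CPM with morphine (0.18, SE 0.06). The groups were apart by a gap narrower than the range from lowest to highest library within either. Hspa5, the chaperone BiP (196 to 207 and 216 to 234 CPM), Pdia3 (143 to 160 and 162 to 179 CPM) and Hsp90b1 (274 to 294 and 297 to 312 CPM) also separated the groups, so that 4 of 25 genes of the unfolded protein response did, beside 1.55% of all genes, and 1 of 25 was at p under 0.05. The list's median was 0.04, with 16 of 25 above 0. Cytosolic heat shock genes had a median of 0.05, with Stip1 as the single member without overlap (0.12, SE 0.07).

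Members of the clock list ran from -0.32 to 0.64 on the log2 scale. Nr1d1, the repressor REV-ERB alpha, stood at 94.8, 81.4, 98.3 and 95.0 CPM with saline and 72.0, 82.3, 87.1 and 77.6 CPM with morphine (-0.21, SE 0.09), with saline 3 inside the morphine range. Dbp, a direct output gene of the clock, stood at 74.5 to 89.5 and 69.0 to 74.0 CPM, without overlap (-0.22, SE 0.11). The 4 most abundant members, Tef, Hlf, Cry2 and Csnk1d, were at 0.05, 0.13, -0.12 and -0.0050. The median of 23 was 0.02, and it was -0.05 without saline 4. Leaving out single libraries gave 0 to 3 members at p under 0.05, beside 1 with all. The hour at which tissue was taken is not in the labels.

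The interferon response list lay below 0 in 42 of 42 members, with a median of -0.49 and 0 at p under 0.05. Dhx58, a cytosolic RNA sensor, stood at 3.75, 3.69, 10.4 and 4.45 CPM with saline and 4.52, 3.63, 3.01 and 2.11 CPM with morphine (-0.75, SE 0.35, or -0.26 without saline 4). Saline 4 was the highest library, and the other saline libraries lay within the morphine range. Of the 50 genes at least 2-fold above every other library in saline 4, 22 were on this list. Without that library 20 of 42 members were above 0 and the median was -0.02. The antigen presentation genes H2-D1, H2-K1 and B2m were highest in saline 4 and morphine 1, with H2-D1 at -0.23 (SE 0.36), H2-K1 at -0.24 (SE 0.38) and B2m at -0.14 (SE 0.28).

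Blood genes lay below 0 in 10 of 10 members tested (median -0.74), of which 1, Alas2, was at p under 0.05. Hbb-bs, a beta globin, stood at 83.1, 124, 33.9 and 43.9 CPM with saline and 37.7, 45, 32.4 and 53.8 CPM with morphine, so saline 2 and 3 were high and saline 4 and 5 were like the morphine libraries. Hba-a1 was at -0.59 (SE 0.36), Hba-a2 at -0.47 (SE 0.41) and Hbb-bt at -0.73 (SE 0.51); these globin genes come as near-identical copies and can share reads. Without saline 3 the list's median was -0.19, and leaving out single libraries gave 0 to 4 members at p under 0.05. Immediate early genes, which neurons switch on with activity, lay below 0 in 24 of 30 members (median -0.12; Atf3, -0.69, SE 0.36), with saline 3 and morphine 4 highest, and their median was 0.02 without saline 3 and -0.0079 without morphine 5. Genes of cytosolic ribosomal proteins lay below 0 in 43 of 49 (median -0.07; Rpl34, -0.20, SE 0.10), and without saline 4 in 27 of 49 (median -0.0071). Among reactive glia genes Ch25h was lower at p under 0.05 (-1.07, SE 0.40), with saline 2 and 3 at 2.80 and 3.31 CPM and every other library between 0.626 and 1.22 CPM.

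Between genes of different kinds the largest contrast was in RNA that is not protein-coding. The ribosomal RNA locus CT010467.1 took 4.61, 4.48, 3.58 and 5.63% of counts with saline and 2.56, 3.04, 2.84 and 2.38% with morphine. Saline 4 was the lowest of its group and still above every morphine library. The exact two-sided permutation test over 70 assignments gave p = 0.0286. No smaller p is possible with this design, and over 8 library measures the Benjamini-Hochberg adjusted exact p was 0.0762. The share of nuclear protein-coding genes (87.4 ± 0.861 and 89.2 ± 0.176%, SD, n = 4 each) and that of the 50 most abundant genes (15.3 ± 0.916 and 13.8 ± 0.183%) had the same exact permutation p and adjusted p. These are shares of the same total, and the ribosomal RNA locus is itself among the 50 most abundant genes. They are therefore not results separate from that of the locus. Mitochondrial ribosomal RNA (0.527 ± 0.0552 and 0.432 ± 0.0276%) and mitochondrial messenger RNA (3.65 ± 0.0864 and 3.90 ± 0.129%) had an exact permutation p = 0.0571, adjusted 0.0914. They went in opposite directions: mt-Rnr2 was at -0.33 (SE 0.10), while 13 of 13 mitochondrially encoded messenger RNAs were above 0, with a median of 0.09, 0 at p under 0.05, and mt-Nd4l, mt-Co2 and mt-Nd4 without overlap. Nuclear respiratory chain genes were above 0 in 34 of 42 (median 0.04; Cox5a, 0.11, SE 0.08). Libraries were made with oligo(dT) selection, in which RNA of the ribosomal RNA locus CT010467.1 is carry-over. The part of the preparation in these shares was not tested.

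Genes that GENCODE types as TEC, loci whose transcripts await experimental checks, were more often below 0 than above. Of 1144 tested, 764 (66.8%) were below 0, with a median of -0.23, and in 79 (6.91%) all morphine libraries lay below all saline libraries, beside 1.77% of all genes; 9 were above. At p under 0.05 there were 91 lower and 11 higher of the 1144, beside 1.82 and 1.67% of all genes. The 722 TEC genes of up to 0.536 CPM, the lowest of 5 equal classes of mean CPM, had a median of -0.47 and together took 0.0200, 0.0207, 0.0204 and 0.0220% of counts with saline and 0.0165, 0.0147, 0.0157 and 0.0156% with morphine, without overlap. Genes this faint can pass the filter on low counts only through the libraries where they are higher. Their differences are therefore not independent of that filter. The 1333 protein-coding genes of the same level class had a median of 0.0077 and shares that overlapped (0.0364 to 0.0392 and 0.0332 to 0.0428%), and the 422 other TEC genes had a median of -0.06, with 20 (4.74%) below in all morphine libraries and, at p under 0.05, 24 lower and 8 higher. Of 14 TEC genes of at least 1 CPM with the smallest p, 8 were below 0 and 6 above. The smallest p was that of Gm37899 (chr12:109668869-109677585, plus strand), which stood at 1.5, 1.39, 1.84 and 1.41 CPM with saline and 0.755, 0.744, 0.313 and 0.479 CPM with morphine (-1.41, SE 0.32). Small nuclear RNA genes had 22 of 27 below 0 and a median of -0.89. Lower at p under 0.05 were 10 of 27, beside 1.82% of all genes. The 27 took 0.00105 ± 0.000298% of counts with saline and 0.000577 ± 0.000108% with morphine (SD, n = 4 each). Small nucleolar RNA genes had a median of 0.02 over 44. The median level of the small nuclear RNA genes was 0.216 CPM, so the same limit of the filter holds for them. The same libraries differed in their share at the ribosomal RNA locus; with that share as a covariate the TEC median was -0.24 and the small nuclear RNA median -0.45.

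**Figure D5:**
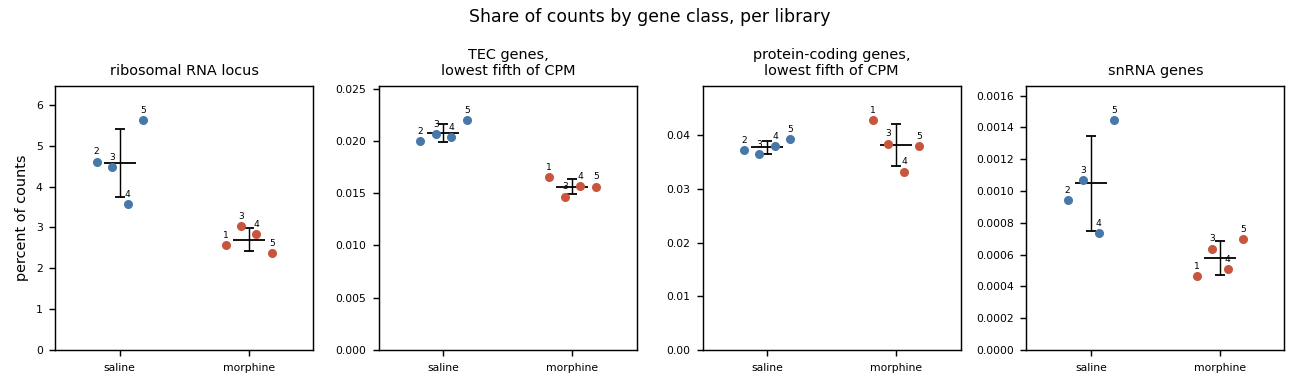
Percent of counts (vertical axes, from 0) at the ribosomal RNA locus, in TEC and protein-coding genes of the lowest class of mean CPM and in small nuclear RNA genes, for each library (digits are library numbers, horizontal bars the means, error bars 1 SD, n = 4). The morphine libraries lie below the saline libraries in all panels except that of protein-coding genes, where the groups overlap.

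Many of the large fold changes belonged to genes that a single library or a few of them carried. Of 15934 genes of at least 1 CPM, 70 had a log2 fold change beyond 1 in size, 25 higher and 45 lower. Among these, 22 were immunoglobulin genes, 19 were predicted models, 26 were at p under 0.05 and 5 separated the groups. Over all genes tested 1.67% were higher and 1.82% lower at p under 0.05. The groups separated upward in 1.55% and downward in 1.77%. Immunoglobulin genes as a whole took 0.0658, 0.0562, 0.120 and 0.00841% of counts with saline and 0.0663, 0.00961, 0.0362 and 0.00416% with morphine, an order that followed neither group. Genes at 0 counts in every library of a group were few, 8 with morphine and 5 with saline. They passed the filter on low counts through other libraries, so their differences are not independent of that filter. Gm43984 and Gm26760, a TEC gene and a long noncoding RNA, had 8 to 17 and 5 to 27 counts per saline library and 0 in all morphine libraries; against a floor of 3 counts per library they were at least 4.13-fold and at least 5.72-fold lower, and DESeq2 called both (adjusted p = 0.0288 and 0.0321). ENSMUSG00000118623, a gene ID without a symbol or position in the annotation used here, had 33 to 178 counts per morphine library and 0 with saline, at least 34.4-fold higher. With edgeR fitted on the 8 libraries alone it was the single gene called (adjusted p = 0.0236), while its adjusted p was 0.999 with all 12. Its knockdown libraries included 2 of 4 at 0. Vax2os, an antisense RNA, had 3 to 27 counts per morphine library and 0 with saline. Gzmb, the protease granzyme B of cytotoxic lymphocytes, had 12 to 25 counts in saline 2, 3 and 4, 0 in saline 5 and 0 in every morphine library.

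The precision behind these values depended on expression. The fit on all libraries estimated the spread between replicates with the knockdown libraries included. In that fit the 95% interval of the fold change lay within 1.5-fold of no difference in 12341 of the 21958 genes (56.2%). It lay within 2-fold in 15562 (70.9%). With the compared groups alone, the interval lay within 1.5-fold in 12670 of 21039 genes tested and within 2-fold in 15775. By mean CPM, the fit on all libraries gave shares of 98.1 and 99.4% in the highest of the 5 classes (51.0 CPM and more). In the lowest class the shares were 0 and 1.82%. For abundant genes a 1.5-fold difference between the groups was therefore outside the interval, whereas for nearly all of the faintest genes a 2-fold difference was not resolved at this depth, and the interval of Oprm1 also reached past 2-fold on the lower side. Among genes of at least 1 CPM the spread between replicates was somewhat larger with saline (median SD of log2 CPM 0.14, and the larger of both groups in 57.5% of genes) than with morphine (0.12). Saline 4 lay a median of 0.155 in log2 CPM from the other libraries, against 0.0942 to 0.104 for saline 2, 3 and 5. For morphine libraries it was 0.0950 to 0.115. The part of saline 4 in the larger spread was not tested.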

How the data were processed

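RNA sequencing of medial prefrontal cortex was analysed from the deposited table of counts per gene for 12 libraries. Per the labels' protocols, poly(A) RNA was selected with oligo(dT) and sequenced in pairs from stranded dUTP libraries. Per the submitters' processing notes the build was mm10 and the tools named were HISAT2 2.0.4, edgeR, DESeq2, cutadapt 1.9 and StringTie 1.3.4d; of the annotation release, the tools' roles and the strand setting of counting nothing was given in the sources used here. Reads of overlapping or antisense genes may therefore be shared. Of 55401 gene IDs, 55141 matched GENCODE M21 symbols.

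The deposited counts were whole numbers and were used as they stand. In edgeR 4.0.16 (R 4.3.3), genes passing filterByExpr (minimum count 10) were scaled by TMM and fitted by robust quasi-likelihood with 1 mean per group over all 12 libraries. P-values were adjusted by Benjamini-Hochberg over all 21958 genes tested, with a threshold of 0.05. The standard error is the fold change divided by the root of the F statistic. Single library measures were compared by the exact two-sided permutation test over 70 assignments. Pairs of libraries within each group were compared by the mean chi-square per gene, without a test. It ran from 13.4 to 96.0, so no pair within a group was alike within sampling noise. The script was tested on simulated data.

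Named genes are the 12 with the smallest p in each direction among genes of at least 1 CPM and a symbol other than a predicted model, up to 3 members of each list at an unadjusted p under 0.05 or otherwise at most 1, up to 4 of the most abundant interferon, blood, clock and opioid genes, and the ribosomal RNA locus. This rule gave 82 genes, of which 2 are not reported here; 43 others are named outside it, after their values were seen. The members and the 36 lists were chosen with earlier results of these data known. Alternatives covered scaling, filters, DESeq2 1.42.0, limma 3.58.1 voom, a surrogate variable (sva 3.50.0), covariates, the 8 libraries alone and each library left out. Leaving out both libraries numbered 4, and following TEC and small nuclear RNA genes as groups, were chosen after seeing the data.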

Additional observations from a re-analysis of the deposited data

Results flagged for a closer look

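Among 334 groups of 4 libraries, 24 held a library whose gap to the nearest of the others took up more of the group's range than Dixon's critical value at 95% allows. Chance flags about 1 in 20 such groups. Saline 4 was the library in 9 of the 24.

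In saline 4, Prodh stood low at 17.6 CPM, mt-Rnr2 at 2697 CPM, Timp4 at 12.6 CPM, Maob at 20.7 CPM and Slc39a10 at 223 CPM. Dhx58 stood high there at 10.4 CPM and Htr1a at 22.5 CPM. The interferon response list lay 1.28 above the average of the 8 libraries (log2 CPM) in that library, and its share of mitochondrial ribosomal RNA was low, at 0.446% of counts.

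In morphine 4, Slc39a7 stood high at 54.7 CPM and Stip1 at 147 CPM, while Mertk stood low at 50.7 CPM, Gjb6 at 49.9 CPM and Rpl34 at 24.4 CPM. The astrocyte list was at -0.10 and the endothelium list at -0.17 (mean deviation in log2 CPM) in that library, below the other morphine libraries.

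Morphine 1 was the highest of its group for Tfrc at 79.8 CPM, for H2-K1 at 195 CPM and for Igkv17-127 at 0.960 CPM, where the other morphine libraries had 0. Morphine 5 was high for Pdia3 at 179 CPM and low for Stard4 at 30.9 CPM. Saline 5 was high for Apod at 127 CPM and for Oprk1 at 12.3 CPM, and saline 3 was low for Cox5a at 62.9 CPM.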

How the results depend on the processing

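The count of genes called was 0 under edgeR except with the 8 libraries alone (1, ENSMUSG00000118623) and with the replicate block (1, Igkv17-127, log2 fold change -6.28); DESeq2 called 4. A pairing of the libraries by replicate number was not shown. Deviations of same-numbered libraries correlated at 0.0023, 0.066 and 0.16 for numbers 3, 4 and 5. The last was the highest of all pairs, but not every library correlated best with its own number. These few pairs cannot exclude a shared batch. The number of genes with all morphine libraries above all saline libraries was 521 with library totals only, 223 at a minimum of 1 CPM, 191 for protein-coding genes at that minimum, 1258 without both libraries numbered 4 and 345 to 879 when leaving out single libraries. The number of genes with all morphine libraries below all saline libraries was 245, 186, 1367 and 396 to 891 under the last 4 of these; fewer libraries separate more easily by construction. With the ribosomal RNA share as covariate, medians were -0.050 for glutamate, -0.041 for GABA, 0.090 for unfolded protein response, 0.020 for mitochondrially encoded, 0.59 for ependyma and -0.45 for small nuclear RNA genes. The TEC median was -0.052 at a minimum of 1 CPM and -0.17 with the 8 libraries alone, and at that minimum 1 small nuclear RNA gene was left, at -1.40. Without both libraries numbered 4 the glutamate median was -0.040 and that of iron and zinc transport 0.083, and over all settings that left out libraries they ran over -0.040 to 0.017 for glutamate, -0.021 to 0.083 for iron and zinc transport. The causes were not tested.

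Some named genes changed sign. Not all of them were near 0 in the fit on all 12 libraries, where Hba-a2 was at -0.47 and H2-D1 at -0.23. With the covariate, Hlf was at -0.0042, Rgs4 at -0.027, Penk at -0.018, Tef at -0.027 and Csnk1d at 0.0065. With the surrogate variable, H2-D1 was at 0.00070, Tef at -0.0021, B2m at 0.026 and Oprk1 at -0.038. With the block, Pnoc was at 0.012 and Csnk1d at 0.0046; Csnk1d was at 0.015 with library totals only and 6.7e-05 with no filter. Settings that left out libraries gave ranges of -0.40 to 0.083 for B2m, -0.052 to 0.015 for Csnk1d, -0.018 to 0.12 for Grk2, -0.53 to 0.077 for H2-D1, -0.71 to 0.025 for Hba-a2, -0.15 to 0.29 for Oprk1, -0.16 to 0.054 for Pdyn, -0.012 to 0.16 for Penk, -0.21 to 0.049 for Pnoc, -0.90 to 0.029 for Pomc, -0.034 to 0.11 for Tef. Counted over genes and settings, 3135 other gene values kept their direction and side of the threshold. Over lists and settings 975 medians moved by less than the spread between replicates. The 67 values of library measures and of interval counts also stayed within their limits. For library measures the limit was that spread, and for interval counts a 1.5-fold change. Depth limits faint genes most: below 0.536 mean CPM 1.82% of intervals lay within 2-fold.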
